A study of Mus musculus with 59 samples.

Results

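Dppa2, Dppa3, Dppa4 and Dppa5a are 4 developmental pluripotency associated genes, which are active in the early mouse embryo and in embryonic stem cells (ESC). They were chosen by name, as 4 of the 11807 genes that the array's annotation identifies. The 4 genes have 5 probe sets of 22626 in all, since Dppa2 has 2, and each gene was read from its brightest probe set. All values are deposited log2 intensities, centred near 0 on each array. They rank a gene between lines, and no Dppa gene's level is set against that of another. Levels across genes are used only to tell bright from dim probe sets.

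Dppa2 and Dppa4 are SAP-domain proteins that bind each other on chromatin, lie side by side in the genome and are known as activators of genes of the cleavage-stage embryo. Dppa3, also called Stella or PGC7, is a maternal protein of the egg and an early marker of primordial germ cells, and it holds Uhrf1, a partner of the maintenance DNA methyltransferase, away from chromatin. Dppa5a, also called Esg1, is an RNA-binding protein with a KH domain. All 4 are used as markers of the pluripotent state, and they are switched on again when somatic cells are reprogrammed.

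The study compared mouse induced pluripotent stem cells (iPSC) with genetically matched ESC, 1 array per line. The ESC were the targeted KH2 line, which carries an inducible cassette of myc, Klf4, Oct4 and Sox2. The iPSC are described as made from somatic cells of chimeric mice grown from such ESC, and such clones carry the cassette as well. The labels name only chimera 1 and chimera 2 as chimeras, while the other source animals are labelled mouse 1 and mouse 2. All lines grew in serum and LIF on irradiated mouse embryonic fibroblasts (MEF), which were reduced by preplating before total RNA was taken.

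There were 6 ESC lines made from cloned blastocysts (NT-ESC), of which NT-4, NT-5 and NT-6 came from Adeno-2, NT-7 came from iPSC-7, and NT-8 and NT-9 came from iPSC-15. Adeno-2 was 1 iPSC clone of fetal liver origin, labelled Adeno-iPSC, and no genotype is given for it. The 48 other iPSC clones came from 4 animals. Chimera 1 gave 6 clones from MEFs. Mouse 1 gave 4 clones from HSCs, 4 from GMPs, 3 from granulocytes and 2 from PFs. Mouse 2 gave 4, 4 and 3 clones of the same blood origins and 3 from PFs. Chimera 2 gave 3 clones of each blood origin and 6 from TTFs. The ESC group held 4 clones. No age or sex is given. The labels do not spell out PF and TTF, and both are counted here as fibroblasts. Clones of 1 animal share their source, and p-values measure the spread between clones, not between animals. The labels give no batch, so animal and any batch cannot be told apart.

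The probe sets of 3 arrays stood apart before any comparison. NT-7, NT-8 and NT-9 had an SD over all probe sets of 2.35 to 2.47, against 2.54 to 2.64 for the other arrays. The mean of 6 pluripotent markers was 3.67 to 3.95 log2 units on these 3 arrays and 4.45 to 4.50 in NT-4 to NT-6, against 4.32 to 4.55 in ESC. iPSC-32 had a Pou5f1 value of 0.28, against 4.06 to 5.07 in the other iPSC clones of the 4 animals, and results with and without these lines are given where they bear on a Dppa gene. The mean of 11 haematopoietic markers was below 0 on every array. It was highest in NT-7 at -1.13, against -2.01 to -1.5 in the 48 iPSC clones of the 4 animals. In bulk RNA, fewer cells that express a gene and less RNA per cell cannot be told apart.

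**Figure D1:**
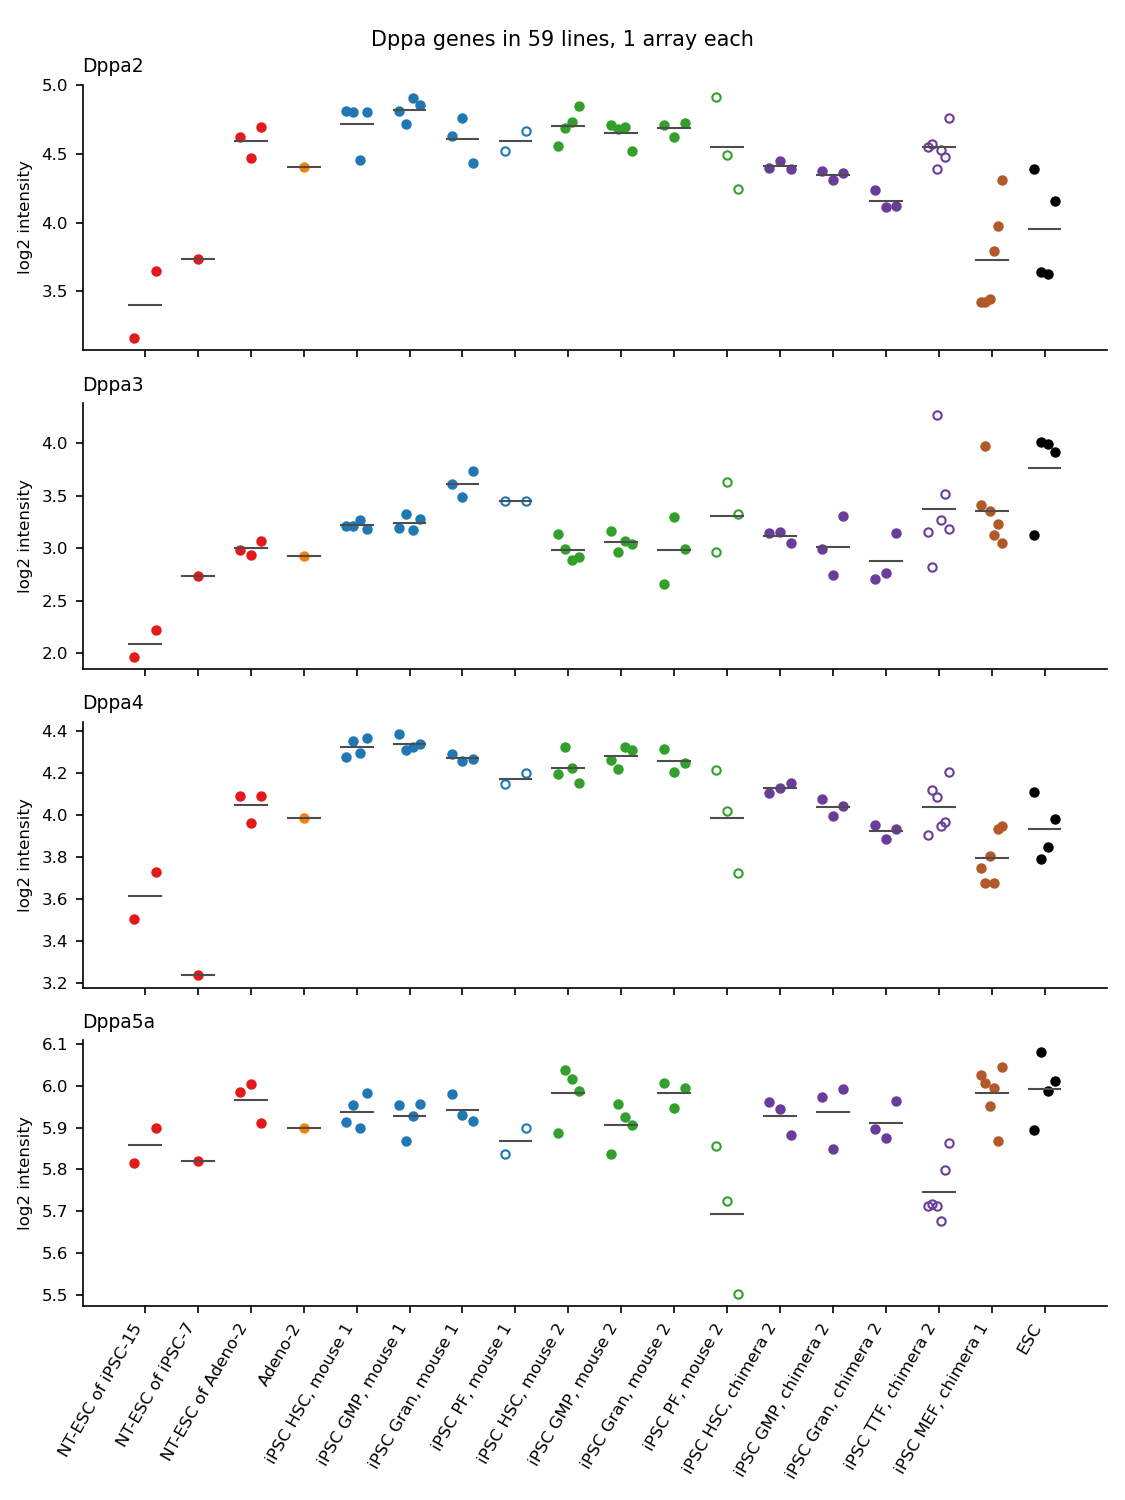
Log2 intensity of each Dppa gene (y axis) by group of lines (x axis). Each point is 1 line, open points are clones from PFs or TTFs, and the bar is the group mean. NT-7, NT-8 and NT-9 are low for Dppa2, Dppa3 and Dppa4, ESC and MEF-derived clones are spread for Dppa2, and the clones of PFs of mouse 2 and TTFs of chimera 2 are low for Dppa5a.

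The 4 genes varied between clones to very different degrees. Within origin groups of iPSC and ESC, the pooled SD was 0.29 for Dppa3 and 0.21 for Dppa2, but 0.10 for Dppa4 and 0.07 for Dppa5a (38 degrees of freedom). Among the 6165 genes with a mean above 0, whose median SD was 0.134, these spreads lay at the 95.4th percentile for Dppa3, the 85.7th for Dppa2, the 20.4th for Dppa4 and the 5.17th for Dppa5a. These genes were not matched for intensity. Dppa5a lay 0.77 to 1.39 log2 units below the highest probe set of each array, and the part of signal compression in its small spread was not tested.

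Group means of iPSC and ESC spanned 1.09 log2 units for Dppa2, 0.89 for Dppa3, 0.54 for Dppa4 and 0.30 for Dppa5a. Dppa2 was lowest in MEF-derived clones at 3.73 ± 0.37 (SD, n = 6), and highest in GMP-derived clones of mouse 1 at 4.82 ± 0.08 (n = 4). Dppa4 had the same lowest and highest groups, at 3.80 ± 0.12 and 4.34 ± 0.03. Dppa3 was lowest in granulocyte-derived clones of chimera 2 at 2.88 ± 0.24 (n = 3), and ESC had the highest mean at 3.76 ± 0.43 (n = 4). Dppa5a was lowest in clones from PFs of mouse 2 at 5.70 ± 0.18 (n = 3), and ESC had the highest mean at 5.99 ± 0.08. With NT-ESC lines placed in the same orders, 49 of 60 steps between neighbouring groups of 2 or more lines were smaller than the larger of their SDs. Such steps were 12 of 15 for Dppa2, 12 of 15 for Dppa3, 11 of 15 for Dppa4 and 14 of 15 for Dppa5a. For Dppa2 the exceptions were steps between the granulocyte, GMP, HSC and TTF groups of chimera 2. The largest exception for Dppa3 was the step above NT-ESC of iPSC-15, at 0.78 log2 units against an SD of 0.24.

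The comparison named in the study's title sets MEF-derived iPSC against ESC. No Dppa gene passed the test, and no gene of the 11807 did (0%, limma, with 997 at an unadjusted p under 0.05). Dppa2 had values of 3.43, 3.43, 3.44, 3.80, 3.98 and 4.31 in iPSC-1 to iPSC-6, against 4.39, 3.65, 3.63 and 4.16 in ESC-1 to ESC-4. Each group thus held both low and high lines, and the groups overlapped. Their means differed by -0.23 (SE 0.21, limma adjusted p = 0.804).

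Dppa3 had values of 3.41, 3.98, 3.35, 3.13, 3.23 and 3.05 in the same MEF-derived clones, against 3.13, 4.02, 4.00 and 3.91 in ESC-1 to ESC-4. All but 1 of the MEF-derived clones lay below the 3 higher ESC lines, while ESC-1 was within the range of the clones. The difference was -0.40 (SE 0.21, limma adjusted p = 0.625). Dppa4 averaged 3.80 ± 0.12 in MEF-derived clones and 3.93 ± 0.14 in ESC (limma adjusted p = 0.707). Dppa5a averaged 5.98 ± 0.06 in MEF-derived clones and 5.99 ± 0.08 in ESC (limma adjusted p = 0.978).

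Across all 48 iPSC clones, Dppa3 was lower than in ESC. It ranged from 2.66 to 4.27 with a median of 3.18 in iPSC, against 3.13, 4.02, 4.00 and 3.91 in ESC-1 to ESC-4. Only iPSC-46 and iPSC-2 reached the level of the 3 higher ESC lines. The difference was -0.55 (SE 0.16, limma adjusted p = 0.0361), in a comparison that called 583 genes (4.94% of those tested), so 1 of 4 members passed. The call rests on the ESC lines. Without ESC-2, ESC-3 or ESC-4 the limma adjusted p was 0.248, 0.247 and 0.116, at differences of -0.47, -0.48 and -0.50. With animal as a random block it was 0.612. Dppa3 still passed without ESC-1 (-0.77, limma adjusted p = 0.00676) and without the MEF-derived clones (-0.58, 0.00728). It also passed with each origin group at equal weight (-0.56, limma adjusted p = 0.00294). Those 3 fits called 9.42%, 19.3% and 25.7% of genes.

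Dppa2 ran the other way, with a difference of 0.52 that did not pass (SE 0.19, limma adjusted p = 0.0832). It ranged from 4.12 to 4.92 with a median of 4.60 in the 42 clones of mouse 1, mouse 2 and chimera 2, against 3.63 to 4.39 in ESC. The clones of those 3 animals overlapped ESC-1 and ESC-4 only. Without the MEF-derived clones the difference was 0.63 and passed (limma adjusted p = 1.24e-04), in a fit that called 19.3% of genes. Dppa2 also passed with each origin group at equal weight (0.55, limma adjusted p = 1.5e-04, 25.7% of genes called) and without ESC-1 (0.66, limma adjusted p = 0.038). Without ESC-2, ESC-3 or ESC-4 it did not pass (limma adjusted p = 0.37, 0.389 and 0.113), nor with animal as a random block (0.622).

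Dppa4 differed from ESC by 0.19 (SE 0.10, limma adjusted p = 0.247), with 4.12 ± 0.20 in iPSC (n = 48) and 3.93 ± 0.14 in ESC. It too passed in the fits without the MEF-derived clones (0.24, limma adjusted p = 0.0338) and with equal weights (0.21, limma adjusted p = 0.00382). It did not pass with any 1 ESC line left out (limma adjusted p of 0.146 to 0.592), nor with animal as a random block (0.81). Dppa5a differed by -0.09 (SE 0.06, limma adjusted p = 0.352), with 5.90 ± 0.11 in iPSC and 5.99 ± 0.08 in ESC. Both comparisons with ESC use the same 4 ESC arrays. Of 7 measured genes of DNA methylation and imprint maintenance, 1 was higher in iPSC, the de novo methyltransferase Dnmt3a, by 1.10 (limma adjusted p = 0.00714). The median difference of that list was 0.24, against 0.03 over all genes. With animal as a random block the comparison called 0 genes, so Dnmt3a did not pass there. Without ESC-2 or ESC-3 it called 6 and 5 genes in all.

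**Figure D2:**
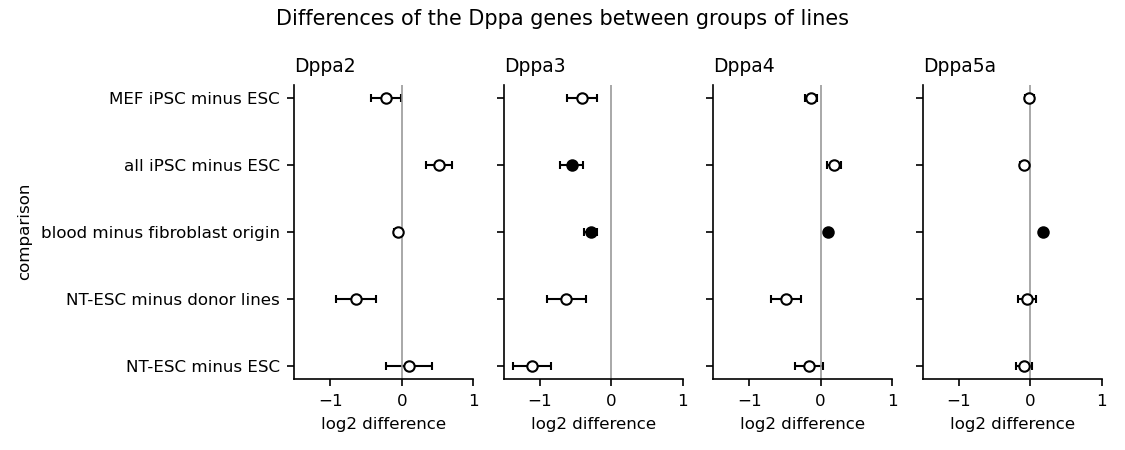
Differences of each Dppa gene in log2 units (x axis) for 5 comparisons (y axis). Points are fitted differences with their standard errors, and filled points passed an adjusted p of 0.05. Dppa3 lies left of 0 in all 5 comparisons, while Dppa5a lies within 0.2 of 0 in each.

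Mouse 1, mouse 2 and chimera 2 gave both kinds of clone. With these animals fitted together, blood-derived iPSC had higher Dppa5a and Dppa4 and lower Dppa3 than fibroblast-derived iPSC. For Dppa4 this did not hold in chimera 2, where the difference was -0.01. The fit held cell class and animal, and called 49.7% of all genes. Of the members, 3 of 4 passed, in a comparison that also called about every other gene tested. Dppa5a, with the smallest clone spread, had the smallest p. It ranged from 5.84 to 6.04 with a median of 5.95 in 31 blood-derived clones, against 5.50 to 5.90 with a median of 5.73 in 11 fibroblast-derived clones. The difference was 0.18 (SE 0.03, limma adjusted p = 3.39e-06).

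Dppa3 ranged from 2.66 to 3.73 with a median of 3.15 in blood-derived clones, against 2.83 to 4.27 with a median of 3.32 in fibroblast-derived clones. The ranges overlapped widely, and the difference was -0.29 (SE 0.09, limma adjusted p = 0.00863). iPSC-46, a TTF clone, had the highest Dppa3 of any line at 4.27, while the other TTF clones lay between 2.83 and 3.52. Without iPSC-46, a setting chosen after its value was seen, the difference was -0.20 (limma adjusted p = 0.0207). The call was lost without mouse 2 (0.0622), without chimera 2 (0.0586) and with 1 mean per animal and cell class (0.053). Granulocyte-derived clones of mouse 1 were the blood-derived exception, with Dppa3 at 3.62, 3.48 and 3.73 in iPSC-15, iPSC-16 and iPSC-17, above the other blood-derived clones of that animal, which lay between 3.18 and 3.32.

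Dppa4 ranged from 3.89 to 4.39 with a median of 4.26 in blood-derived clones, against 3.73 to 4.22 with a median of 4.09 in fibroblast-derived clones. The difference was 0.11 (SE 0.04, limma adjusted p = 0.0206). Without iPSC-32 and iPSC-34, a setting chosen after their values were seen, it was 0.07 and did not pass (limma adjusted p = 0.118). The call was also lost without mouse 1 (0.124) or mouse 2 (0.456), with quantile normalization (0.121), and with 1 mean per animal and cell class (0.0938). Dppa2 did not pass, at -0.05 (SE 0.06, limma adjusted p = 0.487), with 4.59 ± 0.22 in blood-derived clones (n = 31) and 4.56 ± 0.18 in fibroblast-derived clones (n = 11).

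Markers of fibroblasts or feeder cells moved with this comparison. All 15 of 15 measured markers were lower in blood-derived clones, and their mean was 0.84 to 2.37 in blood-derived clones, against 1.73 to 2.83 in fibroblast-derived clones. With that mean as a covariate, no member passed, in a fit that called 13.7% of genes. The difference was 0.12 for Dppa5a (limma adjusted p = 0.184), -0.32 for Dppa3 (0.252) and 0.08 for Dppa4 (0.532). The marker mean itself went with origin, so the lost calls do not show the part of fibroblast or feeder RNA. That part was not tested otherwise. Pluripotent markers moved too, and 5 of 6 measured were higher in blood-derived clones.

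Other genes of these pathways also differed by origin, with 3320 genes higher and 2550 lower in all. Of 17 measured transcripts associated with ES cells, 10 were higher and 1 lower in blood-derived clones, with a median difference of 0.19 against 0.00323 over all genes. They included the de novo methylation cofactor Dnmt3l at 0.35 (limma adjusted p = 4.94e-04) and the transcription factor Sox15 at 0.32 (2.19e-04), while Myc was lower at -0.49 (3.42e-04). Of 11 measured germline genes kept silent by DNA methylation, 8 were higher and 1 lower, with a median of 0.81. The meiotic cohesin subunits Smc1b and Stag3 rose by 1.40 and 1.11 and the axis proteins Hormad1 and Sycp3 by 1.24 and 1.00 (limma adjusted p at most 9.84e-10). Of 6 measured cleavage-stage genes, which Dppa2 and Dppa4 are known to activate as a class, only Usp17la passed, at 0.67 (limma adjusted p = 0.0249). Of 3 measured genes on a list of oocyte and KH-domain genes, Tle6 passed at 0.43 (limma adjusted p = 1.65e-06). Tle6 is a subunit of the subcortical maternal complex of the egg.

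The animal of origin went with the level of 3 of the 4 genes. With cell class held, the test of any difference between the 3 animals called 44.9% of genes and 3 of 4 members. The largest distance between animals was 0.31 for Dppa2 (limma adjusted p = 1.03e-04), 0.23 for Dppa4 (8.76e-05) and 0.30 for Dppa3 (0.0195), and 0.03 for Dppa5a (0.776). Dppa2 averaged 4.71 ± 0.15 in clones of mouse 1 (n = 13), 4.65 ± 0.16 in clones of mouse 2 (n = 14) and 4.40 ± 0.17 in clones of chimera 2 (n = 15). Dppa4 followed the same order at 4.30 ± 0.07, 4.20 ± 0.16 and 4.04 ± 0.10. Dppa3 did not, at 3.35 ± 0.18 in mouse 1, 3.07 ± 0.23 in mouse 2 and 3.15 ± 0.38 in chimera 2. Fibroblast or feeder markers differed between the animals as well, for 13 of 15 measured, with a median distance of 0.55 against 0.14 over all genes. Their mean in blood-derived clones was 1.7 in mouse 1, 1.18 in mouse 2 and 1.1 in chimera 2, and their part in the animal differences was not tested.

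The contrast of blood with fibroblast origin differed between animals for Dppa2 and Dppa4, in a test that called 20.7% of genes and 2 of 4 members. For Dppa2 the difference was 0.13 in mouse 1, 0.13 in mouse 2 and -0.24 in chimera 2 (limma interaction, adjusted p = 0.0257). For Dppa4 it was 0.14, 0.27 and -0.01 in the same animals (adjusted p = 0.0356), a call that was lost with quantile normalization (0.0953) and without iPSC-32 and iPSC-34 (0.0993). The same test called 14 of 15 fibroblast or feeder markers, with a median span of 1.13 between animals against 0.24 over all genes, and 3 of 6 pluripotent markers. The part of these cells in the Dppa2 and Dppa4 values was not tested. In chimera 2, Dppa2 was 4.12 to 4.45 in the 9 blood-derived clones, against 4.39 to 4.76 in the 6 TTF clones. The Dppa3 difference was negative in each animal, at -0.12, -0.29 and -0.37. The Dppa5a difference was positive in each, at 0.07, 0.26 and 0.18. Neither gene was called for an interaction with all clones (limma interaction, adjusted p = 0.697 and 0.149). Without iPSC-32 alone, Dppa2 and Dppa4 stayed called (limma interaction, adjusted p = 0.0012 and 0.00202), in a fit that called 26.8% of genes. Dppa5a was called there as well (0.0191). Only mouse 1 and mouse 2 gave PF clones and only chimera 2 gave TTF clones, so animal and fibroblast type cannot be told apart here.

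Dppa2 and Dppa4 varied together from clone to clone. After each origin group was centred on its mean, their Pearson r over the 48 iPSC was 0.595 (permutation p = 0.00803, adjusted 0.0241 over 6 pairs of members) and Spearman's rho 0.373 (p = 0.0356, adjusted 0.0711). Within animals r of the centred values was 0.733 in chimera 1, 0.286 in mouse 1, 0.71 in mouse 2 and 0.514 in chimera 2. Without iPSC-6 and iPSC-32, the clones farthest in Dppa2, r was 0.457. iPSC-32, the clone with the low Pou5f1 value, was the highest PF clone of mouse 2 in both genes, at 4.92 for Dppa2 and 4.22 for Dppa4. Its Dppa4 was near the median of all iPSC, which was 4.18.

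Dppa2 and Dppa3 varied in opposite directions. Their centred Pearson r was -0.51 (permutation p = 0.00307, adjusted 0.0184) and rho -0.579 (p = 1e-04, adjusted 6e-04). The centred relation was negative in each animal, at -0.705 in chimera 1, -0.747 in mouse 1, -0.537 in mouse 2 and -0.57 in chimera 2. It was -0.447 without iPSC-6 and iPSC-32. Without centring, r was 0.229 over the 15 clones of chimera 2, and -0.705, -0.678 and -0.613 in chimera 1, mouse 1 and mouse 2. Among the ESC lines, which were not in that calculation, ESC-1 had the highest Dppa2 and the lowest Dppa3. ESC-4, next in Dppa2 at 4.16, had a Dppa3 of 3.91, close to ESC-2 and ESC-3. Dppa4 and Dppa5a had r = 0.542 (p = 0.036, adjusted 0.072), which fell to 0.259 without iPSC-32 and iPSC-34. The 3 remaining pairs had adjusted p-values of 0.0897 to 0.737.

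**Figure D3:**
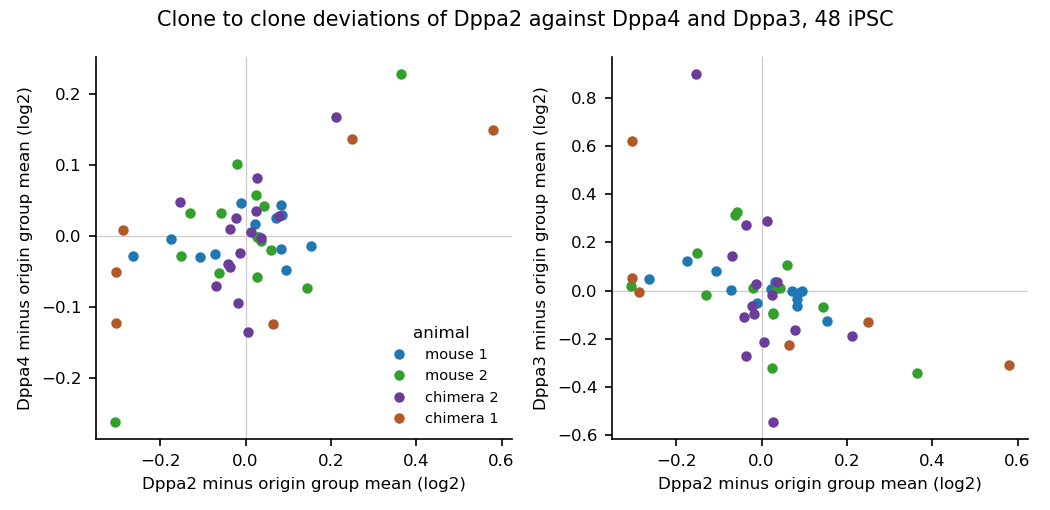
Deviation of each of 48 iPSC clones from its origin group mean in log2 units, for Dppa2 (x axis) against Dppa4 (left) and Dppa3 (right), with the animal in colour. The cloud rises on the left (r = 0.595) and falls on the right (r = -0.51).

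The genes whose centred values were most like each member over the 48 clones were named among genes with a mean above 0. For Dppa3 the nearest was Ifitm1, an interferon-induced membrane protein that also marks early germ cells in the mouse, with r = 0.864 over 48 clones and 0.768 without iPSC-2 and iPSC-46. Next were Acot13, a thioesterase, with r = 0.768, Hmgxb4 with 0.764, Mien1 with 0.748 and Gstm1, a glutathione transferase, with 0.702. The last 3 fell to 0.546, 0.476 and 0.535 without those clones. For Dppa2 they were the acetyltransferase Kat2b (0.799), Ankrd13c (0.794), Zfp936 (0.793), the peptidase Dpp4 (0.783) and Zfp532 (0.771).

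For Dppa4 the most similar genes were Depdc7 (0.791), the histone H3 lysine methyltransferase Ehmt2 (0.791), Zmym3 (0.789), Zfp810 (0.785) and the RNA helicase D1Pas1 (0.783). For Dppa5a they were the stress-response gene Sesn1 (0.83), the kinase Yes1 (0.801), the ubiquitin ligase Ubr3 (0.789), Tm7sf3 (0.789) and Mfsd14a (0.781). These 10 values lay between 0.636 and 0.738 without iPSC-32 and iPSC-34. They were picked as the highest of all such genes and are given with no test.

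Measured genes beside each member in the genome did not share 1 pattern. Morc1, a germline chromatin gene next to Dppa2, had a centred r of 0.596 with Dppa2 and 0.711 with Dppa4, and its level differed between animals by 0.54 (limma adjusted p = 0.00186). Nectin3 on the other side of the pair had r of 0.143 with Dppa2 and 0.101 with Dppa4. Trat1 and Cd96, T-cell genes farther out, had means of -4.3 and -3.73 in iPSC. Gdf3, a TGF-beta family ligand beside Dppa3, had r = -0.553 with it, and Nanog, the pluripotency factor on its other side, had r = -0.03. Apobec1, a cytidine deaminase, and Slc2a3, a glucose transporter, had r of 0.0883 and 0.145 with Dppa3. The neighbours of Dppa5a were Omt2b, Gsta2, Mto1 and Eef1a1, with r of 0.125, 0.227, 0.0994 and 0.535.

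The level of Dppa3 was then set against that of Meg3, a maternally expressed non-coding RNA of the imprinted Dlk1-Dio3 region. Meg3 fell into separate clusters, with 44 clones between -0.46 and 1.88 and 4 clones between 3.13 and 3.41, against 2.74 to 3.38 in ESC, so no r was pooled over all 48. Over the 44 clones Dppa3 and Meg3 had r = 0.0925 (permutation p = 0.554) and rho = 0.039 (p = 0.8), and r = 0.0926 without iPSC-6 and iPSC-30. Centred within origin groups, r was 0.0375 (permutation p = 0.858). Within animals r was 0.496 over 6 clones of chimera 1, -0.618 over 12 of mouse 1, 0.179 over 14 of mouse 2 and 0.293 over 12 of chimera 2, so the sign was not the same in each animal.

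The 4 clones with Meg3 in the range of ESC or just above it were iPSC-19 from PFs and iPSC-44, iPSC-47 and iPSC-49 from TTFs. Their Dppa3 values were 3.45, 3.16, 3.27 and 3.18, in the middle of the iPSC range and below the 3 higher ESC lines. With origin group held in a fit of all 48 clones, the slope of Dppa3 on Meg3 was -0.013 log2 units per log2 unit of Meg3 (SE 0.06, limma adjusted p = 1). That fit called 1 gene of 11806 (0.00847%), which was Rian, the non-coding RNA beside Meg3, with a slope of 0.89 (limma adjusted p = 2.02e-10), and no Dppa gene.

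The other members gave no call against Meg3 either. Over the 44 clones r was -0.0903 for Dppa2 (permutation p = 0.561) and -0.199 for Dppa4 (p = 0.193). For Dppa5a it was -0.354 (permutation p = 0.0163, adjusted 0.0652 over 4 genes), and 0.00878 after centring within origin groups (p = 0.95).

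**Figure D4:**
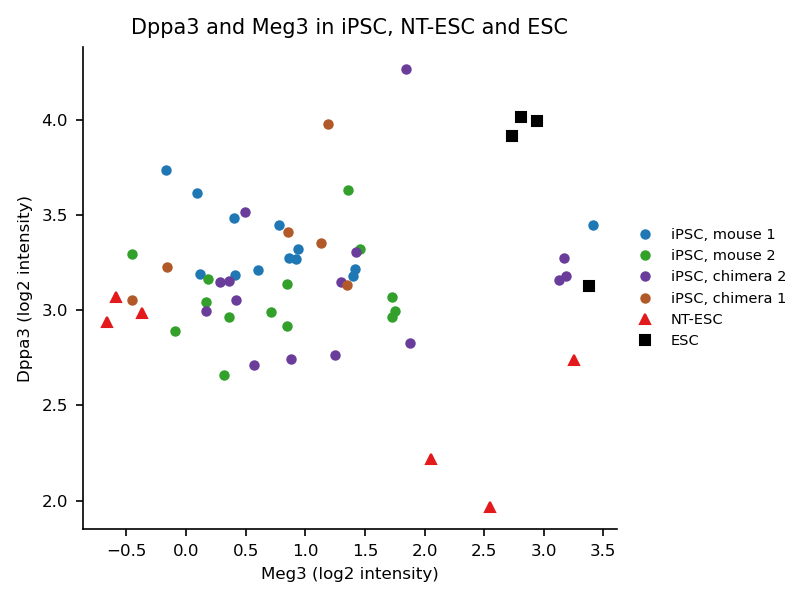
Dppa3 (y axis) against Meg3 (x axis), both in log2 intensity, for iPSC coloured by animal (circles), NT-ESC (triangles) and ESC (squares). Dppa3 shows no common trend over Meg3, and the 4 iPSC clones with Meg3 above 3 have Dppa3 between 3.16 and 3.45.

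NT-ESC were compared with the lines whose nuclei they came from, with the donor line as a block. No Dppa gene passed, in a comparison that called 7 genes (0.0593%, limma, with 4824 at an unadjusted p under 0.05). The differences were -0.63 for Dppa2 (SE 0.28, limma adjusted p = 0.127), -0.62 for Dppa3 (SE 0.28, 0.127), -0.48 for Dppa4 (SE 0.21, 0.121) and -0.04 for Dppa5a (SE 0.13, 0.813). The donor families did not move alike.

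In the families of iPSC-15 and iPSC-7, which held the 3 arrays that stood apart, every subclone was below its donor. Dppa3 was 1.97 in NT-8 and 2.22 in NT-9, against 3.62 in iPSC-15, and 2.74 in NT-7, against 3.22 in iPSC-7. Dppa2 was 3.16 in NT-8 and 3.65 in NT-9, against 4.63 in iPSC-15, and 3.73 in NT-7, against 4.81 in iPSC-7. Dppa4 was 3.51 in NT-8 and 3.73 in NT-9, against 4.29 in iPSC-15, and 3.24 in NT-7, against 4.28 in iPSC-7. NT-8 and NT-9 had the 2 lowest Dppa3 values of all 59 arrays, and NT-7 and NT-8 the 2 lowest of Dppa4.

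In the Adeno-2 family the subclones lay close to their donor. Dppa3 was 2.99, 2.94 and 3.07 in NT-4, NT-5 and NT-6, against 2.92 in Adeno-2. Dppa2 was 4.63, 4.47 and 4.70 in the same subclones, against 4.41 in Adeno-2. With this family alone the differences were 0.19 for Dppa2, 0.08 for Dppa3, 0.06 for Dppa4 and 0.07 for Dppa5a, all with the opposite sign to the fit of 3 families, and none passed (limma adjusted p of 0.288 to 0.697, with 1 donor array assumed to vary like the subclones). Meg3, as read from its brightest probe set, split the families as well. NT-7, NT-8 and NT-9 had Meg3 of 3.26, 2.55 and 2.05 but Rian of -0.79, 0.11 and -0.35, and NT-4 to NT-6 had both below -0.3. The other Meg3 probe sets averaged 0.438, -0.760 and -1.458 over all NT-ESC, against 2.708, 0.425 and 1.042 in ESC. The last of them was no lower than -1.815 on any array, so the Meg3 level of NT-7 to NT-9 depends on the probe set. Fibroblast or feeder markers averaged 0.40 to 0.49 in NT-4 to NT-6 and 1.69 to 2.12 in NT-7 to NT-9, and the part of such RNA in the Dppa values was not tested.

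**Figure D5:**
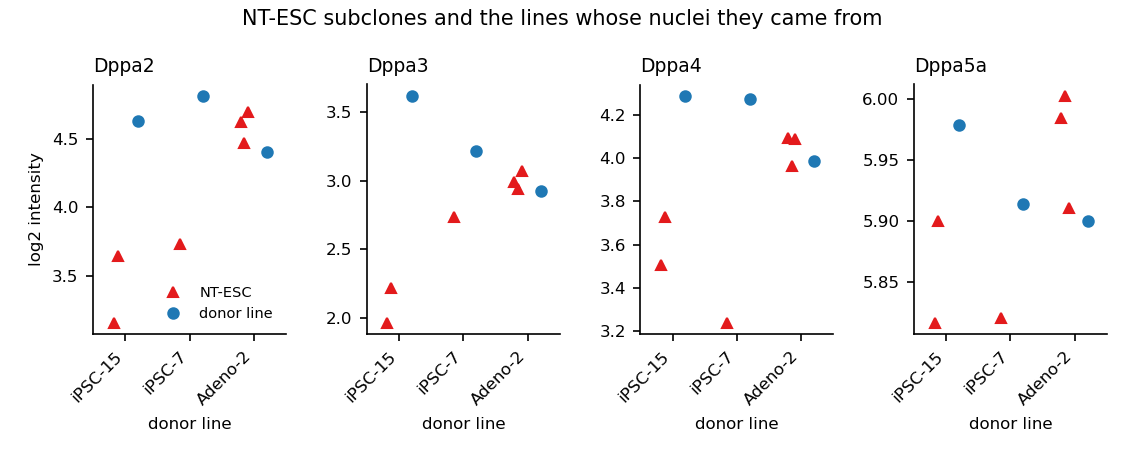
Log2 intensity (y axis) of each Dppa gene in NT-ESC subclones (triangles) and their donor line (circles), by donor line (x axis). Subclones of iPSC-15 and iPSC-7 lie below their donors for Dppa2, Dppa3 and Dppa4, while those of Adeno-2 lie near theirs.

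Against ESC, NT-ESC had lower Dppa3 in each of the 6 lines, but the difference did not pass. Dppa3 was 1.97 to 3.07 in NT-ESC with a median of 2.84, against 3.13, 4.02, 4.00 and 3.91 in ESC, and the groups did not overlap. The difference was -1.11 (SE 0.27, limma adjusted p = 0.275), in a comparison that called 1 gene, Rian (0.00847%, with 2074 genes at an unadjusted p under 0.05). In 1 fit over all groups, which takes the spread from every line, the same difference passed (limma adjusted p = 4.97e-07), as did Dppa4 at -0.16 (0.0316), but that fit called 68.5% of all genes. Dppa2 differed by 0.10 (adjusted p = 0.829), Dppa4 by -0.16 (0.549) and Dppa5a by -0.09 (0.599) in the fit of the compared lines alone. With NT-4 to NT-6 as the only NT-ESC, the difference from ESC was 0.64 for Dppa2 (limma adjusted p = 0.107), -0.76 for Dppa3 (0.087) and 0.12 for Dppa4 (0.52), the last with its sign turned.

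The Dppa2 probe sets had r = 0.953 over 59 arrays. The second one averaged 2.47 in iPSC and 1.71 in NT-ESC, against 1.72 in ESC. With the mean of both probe sets, the Dppa2 difference of NT-ESC from donors was -1.01, against -0.63 from the brightest alone, and did not pass (limma adjusted p = 0.0608). The other 3 genes had a single probe set each. The annotation lists pseudogenes named Dppa3-ps, Dppa5b and Dppa5c, whose transcripts the probes of Dppa3 and Dppa5a could also bind, and this was not tested.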

How the data were processed

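RNA of 59 mouse lines was labelled as biotinylated cRNA and hybridised to Affymetrix arrays, per the labels' protocols. The deposited values are log2 intensities per probe set with array means near 0, from the authors. The base of 2 was inferred from their range, and the sources used here do not give the background correction, summarisation or normalization. The number of arrays limits the precision.

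Probe sets were named by gene identifier through RefSeq symbols of GRCm38.p6 (18003 with 1 gene, 287 with several, 4336 with none), and each of 11807 genes was read from its probe set with the highest mean. Linear models from limma (version 3.58.1, under R 4.3.3) with eBayes gave 2-sided tests of group differences, adjusted by Benjamini-Hochberg over every gene at a threshold of 0.05. Each adjusted p of a difference comes from limma. Correlations used 100000 permutations in numpy 2.4.6. The fits were tested on simulated data.

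The members are always named, with the 5 most similar genes each, up to 2 measured neighbours on each side, Meg3, Rian and Pou5f1 where a result turns on them, and up to 4 genes of a list past the threshold per comparison. The members and lists were chosen with earlier results of these data known. The interaction test of origin with animal was added after the data were seen. Alternatives covered quantile normalization, a filter below the 40th percentile, the mean of probe sets, trend and robust variance, and lines left out.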

Additional observations from a re-analysis of the deposited data

Results flagged for a closer look

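In 32 sets of 4 to 6 lines, over the 4 genes, 3 single lines lay far from the rest of their group, where chance marks about 1 in 20. Dppa3 was 3.12 in ESC-1, against 3.91 to 4.01 in the other ESC lines. Dppa2 was 4.46 in iPSC-9, against 4.80 to 4.81 in the other HSC-derived clones of mouse 1. Dppa2 was 4.52 in iPSC-28, against 4.68 to 4.71 in the other GMP-derived clones of mouse 2.

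The contrast of blood with fibroblast origin differed between animals for Dppa2 (limma interaction, adjusted p = 0.0257), with differences from -0.24 in chimera 2 to 0.13 in mouse 1. It also differed for Dppa4 (limma interaction, adjusted p = 0.0356), with differences from -0.01 in chimera 2 to 0.27 in mouse 2. The Dppa4 call was lost with quantile normalization (0.0953) or without iPSC-32 and iPSC-34 (0.0993). Without iPSC-32 alone both calls stayed (limma interaction, adjusted p = 0.0012 for Dppa2 and 0.00202 for Dppa4).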

How the results depend on the processing

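There were 308 repeats of the members' differences and slope under another setting. Of these, 266 kept direction and side of the threshold, 17 lost the call, 8 gained it and 17 changed sign. They include the test between animals and the interaction test, whose values are spans and cannot change sign. No cause of a change was tested except where the setting itself removes lines. For MEF-derived iPSC against ESC, clone numbers did not pair the lines (r of deviations 0.026 to 0.512 over 4 numbers, of which 2 correlated best with their own). With the clone number as a replicate block, 15 genes were called and Dppa5a was 0.002. Genes called were 7 with the mean of probe sets, 203 in 1 fit over all groups and 0 to 4 with 1 line left out, where Dppa5a ranged from -0.044 to 0.018.

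For all iPSC against ESC, leaving out 1 ESC line gave 5 to 1112 genes, Dppa2 0.4094 to 0.6644 and Dppa3 -0.7665 to -0.4698. Equal weight of origin groups gave 3039 genes, Dppa2 0.5483 and Dppa4 0.2055. Animal as a random block gave 0 genes (900 at an unadjusted p under 0.05) and Dppa3 -0.536. Without MEF-derived clones there were 2280 genes, with Dppa2 0.6258 and Dppa4 0.2367.

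For blood against fibroblast origin, the call of Dppa4 was lost with quantile normalization (0.0668), without mouse 1 (0.0987) or mouse 2 (0.0378), and without iPSC-32 and iPSC-34 (0.0668), and that of Dppa3 without mouse 2 (-0.2848) or chimera 2 (-0.2088). Dppa2 was 0.125 without chimera 2. With 1 mean per animal and class, Dppa2 was 0.003, and the calls of Dppa3 (-0.252) and Dppa4 (0.1327) were lost. With fibroblast markers as a covariate 1619 genes were called, with Dppa2 0.0312, Dppa3 -0.3184, Dppa4 0.079 and Dppa5a 0.1153. The difference of that contrast between animals spanned 0.2167 for Dppa4 with quantile normalization and 0.2423 without iPSC-32 and iPSC-34 (neither called), and 0.2724 for Dppa5a without iPSC-32 (called).

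For NT-ESC against donors, 12 genes were called with trend and robust variance, 0 with no donor block (1158 unadjusted), 0 to 9 with 1 subclone left out, and 2042 in the Adeno-2 family alone, where Dppa2 was 0.1927, Dppa3 0.0757, Dppa4 0.063 and Dppa5a 0.0663. Against ESC, 2 genes were called with the mean of probe sets, 468 with NT-4 to NT-6 alone (Dppa4 0.1167), and 8084 in 1 fit over all groups (Dppa3 -1.109, Dppa4 -0.1632), and Dppa2 was -0.0092 to 0.2458 with 1 ESC line left out.

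The slope of Dppa3 on Meg3 was -0.1053 in fibroblast-derived clones, -0.1262 with another Meg3 probe set, 0.0162 in blood-derived clones, 0.0007 without mouse 2, 0.0266 without chimera 2 (2 genes called) and 0.0558 without the 4 clones of high Meg3 (38 called), none past the threshold. With Rian in place of Meg3, 0 genes were called (203 unadjusted). The r of Dppa5a with Meg3 was 0.009 after centring. Settings without iPSC-46, without both iPSC-32 and iPSC-34, without the clones of high Meg3 and the interaction of origin with animal, with its settings, were chosen after seeing the data.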
